A study of Mus musculus with 15 samples.

Results

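Valproic acid (VPA), an inhibitor of histone deacetylases, was compared with PBS in the arrays whose labels give the virgin stage. The comparison holds 2 VPA arrays and 2 PBS arrays of the 15 in the series, and it was described across 12393 genes, each represented by its brightest probe set, judged by the mean of all 15 arrays among probe sets with 1 symbol. The virgin VPA and virgin PBS arrays carry mRNA of mammary epithelial cells purified from digested glands of female C57BL/6 mice at 9 weeks, injected intraperitoneally with VPA or with PBS as the control. The other groups used here were 3 pregnant VPA and 2 pregnant PBS arrays, labelled day 21 of pregnancy, and 3 virgin 5-azacytidine (AzaC) arrays at 9 weeks, all from mice of the same strain and sex. The series also holds 3 pregnant AzaC arrays, labelled day 21 of pregnancy as well. The labels give no dose, no time after injection, no estrous stage and no number of mice per array. Nothing in them says that arrays of a group came from separate mice, so the tests measure only the spread between these arrays, which may be technical. Their small number limits the precision of every value.

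The mammary gland of a virgin mouse is a tree of ducts in a fat pad. Its ducts consist of luminal and basal epithelial cells, and fibroblasts and adipocytes of the pad send growth factors to them. Histone deacetylases remove acetyl groups from histone tails, and inhibitors such as VPA change the transcription of many genes in cultured cells. Milk protein genes are known as the main products of the secretory gland of late pregnancy and lactation.

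Values are the deposited log2 signals, given for replicate 1 and then for replicate 2 of a group. Differences are VPA minus PBS on that scale with their standard error (SE), and adjusted p-values are those of limma over all genes. Milk protein genes were among the brightest on the arrays labelled virgin. Csn2, which encodes beta-casein, read 13.72 and 13.85 in VPA arrays and 13.69 and 13.80 in PBS arrays. Wap, which encodes whey acidic protein, read 13.41 and 13.80 in VPA arrays and 13.66 and 13.69 in PBS arrays. Lalba, which encodes alpha-lactalbumin, read 14.13 and 14.24 in VPA arrays and 14.17 and 14.05 in PBS arrays. All 3 lay at or above the 99.5th percentile of each of the 4 arrays, and the groups overlapped for each of them. Luminal and basal epithelial markers were present: Krt8 lay at or above the 96.3th percentile and Krt5 at or above the 76.8th. Why arrays labelled virgin carry these transcripts was not tested.

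The PBS arrays differed from each other for more genes than the VPA arrays did. Across all genes the PBS arrays correlated at 0.948, the lowest value between replicates in the series, where replicates ranged up to 0.979, and the VPA arrays at 0.971. The PBS arrays lay more than 1 apart on the log2 scale for 1995 genes (16.1%), the VPA arrays for 1048 (8.46%), and the group means for 815 (6.58%). Each mean is over 2 arrays and so varies less than a single array, which makes the last count unlike the replicate counts. Signal from 18S ribosomal RNA, averaged over 3 control probe sets, was 4.26 and 5.62 in VPA arrays and 8.45 and 10.77 in PBS arrays, so the groups did not overlap. The 3' minus 5' difference of the Gapdh control probe sets, a measure of RNA integrity, was 0.01 and 0.19 in VPA arrays and -0.06 and 1.23 in PBS arrays, and the value of 1.23 was the highest of all 15 arrays. The part of both measures in the results was not tested beyond the fits that include them as covariates.

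A single gene, Fgf10, passed an adjusted p of 0.05. It fell in VPA arrays and was the only lower call (0.00807% of the genes tested), while 0 genes (0%) passed in the other direction by limma. Leaving out single arrays, the fit called 39 genes without PBS replicate 1, 12 without VPA replicate 2, and 0 without PBS replicate 2 or without VPA replicate 1. Without adjustment, 452 genes (3.65%) were higher and 399 (3.22%) lower at a p under 0.05. That split depended on the processing. It was 521 higher and 298 lower with values under 5 set to 5, and 760 higher and 404 lower with the Gapdh difference as a covariate. It was 384 higher and 420 lower under quantile normalization, 311 and 323 with only the 4 arrays, 278 and 279 with the 18S signal as a covariate, and 181 and 294 without VPA replicate 1. Both VPA arrays lay above both PBS arrays for 2574 genes (20.8%) and below them for 1863 (15%). The difference passed 1 on the log2 scale upward for 324 genes (2.61%) and downward for 491 (3.96%). The median difference of all genes was 0.05, with 5% of genes below -0.88 and 5% above 0.74. Among genes at or above the median signal of 7.79, 256 were higher and 59 lower at an unadjusted p under 0.05. Among dimmer genes, 196 were higher and 340 lower.

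**Figure D1:**
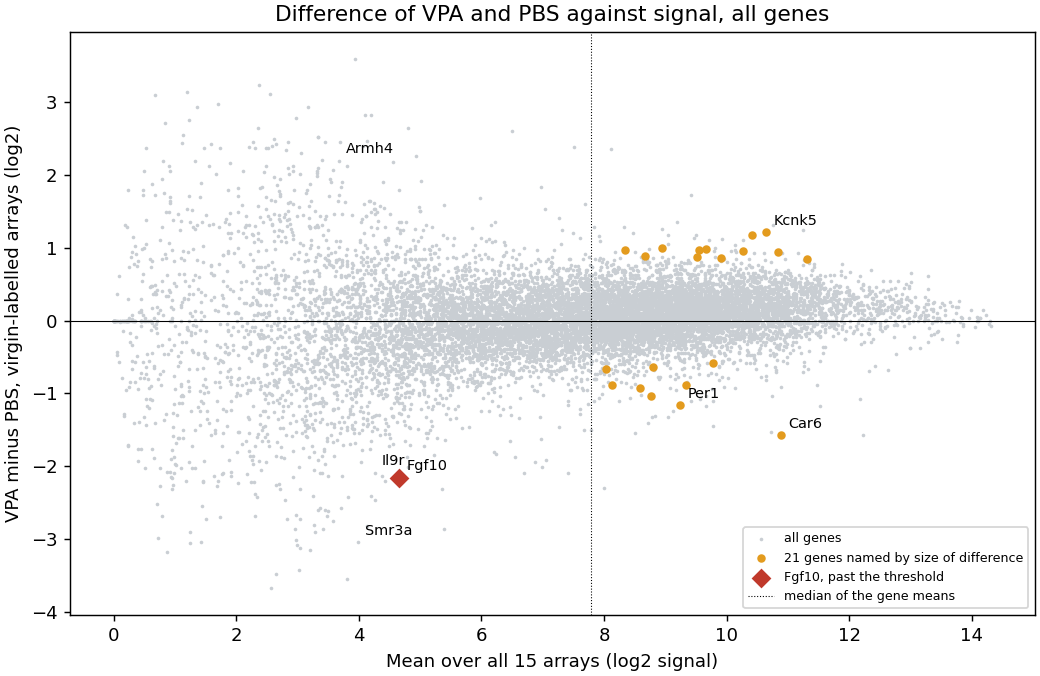
Each point is a gene, with its mean over all 15 arrays on the x axis and its difference, VPA minus PBS in virgin-labelled arrays, on the y axis (both log2). Differences spread most among dim genes; Fgf10, the single gene past the threshold (diamond), has a mean of 4.66, and the 21 bright genes named by size (orange) lie to the right of the dotted median of 7.79.

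Fgf10 encodes fibroblast growth factor 10, a ligand that mesenchymal cells send to the receptor Fgfr2 on epithelium and that is needed for the mammary bud and ducts. It read 2.76 and 3.30 in VPA arrays and 5.26 and 5.11 in PBS arrays. Both VPA arrays were low and the groups did not overlap. The means were 3.03 ± 0.38 in VPA arrays and 5.19 ± 0.11 in PBS arrays (SD, n = 2 each), a difference of -2.16 ± 0.22 (SE) with an adjusted p of 0.0109. The other 11 arrays ran between 4.26 and 5.26, so the VPA arrays lay below all of the rest. Fgf10 is dim and has 1 probe set: it ranked at the 6.62th and 8.49th percentiles of the VPA arrays and the 21.1th and 19.7th of the PBS arrays. No detection calls were analysed here. The call was lost without VPA replicate 1 (-1.88, adjusted p = 0.0802) and without PBS replicate 2 (-2.23, adjusted p = 0.0706). It was also lost with a floor of 5, where the difference was -0.19 (adjusted p = 0.697). The adjusted p was 0.0536 with the replicate block, 0.102 with the 18S covariate, 0.18 with trend and robust variance settings, 0.577 with only the 7 virgin-labelled arrays and 0.84 with only the 4 compared. The call passed in 5 of 13 alternative fits. Among these 5 is the mean of probe sets, which could not change the values of Fgf10, since it has 1 probe set. In mRNA from mixed cells, fewer cells of a type and less RNA per cell cannot be told apart, and fibroblast markers, given below, were also low in VPA arrays.

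The other genes of fibroblast growth factor signalling gave smaller differences. Of 29 listed ligands, receptors and feedback genes, 27 were measured and only Fgf10 passed. Their median difference was -0.13, against 0.05 for all genes, with 11 positive and 16 negative, and it was 0.07 without VPA replicate 2. Fgf7, which encodes another ligand of Fgfr2, read 6.75 and 6.66 in VPA arrays and 7.04 and 7.34 in PBS arrays, a difference of -0.48 ± 0.25 (adjusted p = 0.732). Fgf4, a ligand known from the embryo, read 6.07 and 6.06 in VPA arrays and 6.68 and 7.03 in PBS arrays, a difference of -0.79 ± 0.20 (adjusted p = 0.452). Groups did not overlap for either ligand, but the 4 probe sets of Fgf4 disagreed, and their mean gave 0.05. The receptor gene Fgfr2 overlapped, with 9.46 and 9.15 in VPA arrays and 9.62 and 9.06 in PBS arrays. Fgfr3 read 6.77 and 5.70 in VPA arrays and 7.0 and 7.38 in PBS arrays (-0.95 ± 0.45, adjusted p = 0.731), and the mean of its probe sets gave -0.50. Among feedback genes, Dusp6, a phosphatase of ERK, had a difference of 0.30 and Spry1, an inhibitor of receptor tyrosine kinase signalling, one of -0.39. Neither passed.

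The genes next to the threshold were dim as well. Armh4, which encodes a membrane protein, read 4.39 and 4.32 in VPA arrays and 2.40 and 1.90 in PBS arrays, a difference of 2.20 ± 0.30 (adjusted p = 0.0778). The other 11 arrays ran from 3.20 to 4.39, so here the PBS arrays stood apart. Armh4 passed without PBS replicate 1, at 2.45 with an adjusted p of 0.0223, and all 4 values lie under the floor of 5, where the difference is 0. Il9r, which encodes the receptor of interleukin 9, read 2.58 and 2.99 in VPA arrays and 4.95 and 4.81 in PBS arrays (-2.09 ± 0.32, adjusted p = 0.155). For Il9r the VPA arrays stood apart, since the other 11 ran from 3.70 to 4.89.

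Of 6197 genes at or above the median signal, 43 higher and 9 lower ones had an unadjusted p under 0.01 and groups without overlap. Genes with provisional names were left out of these counts. None of the genes counted passed adjustment. The 12 largest higher ones and all 9 lower ones are described here, with adjusted p between 0.26 and 0.592. Sumo3, a small modifier joined to other proteins, read 11.32 and 11.28 in VPA arrays and 9.95 and 10.30 in PBS arrays, a difference of 1.17 ± 0.25. Ube2g2, a ubiquitin-conjugating enzyme of the degradation pathway of the endoplasmic reticulum, read 9.66 and 9.53 in VPA arrays and 8.50 and 8.70 in PBS arrays, a difference of 1.00 ± 0.20. Stub1, a ubiquitin ligase that works with chaperones, read 10.84 and 10.89 in VPA arrays and 9.90 and 9.94 in PBS arrays, a difference of 0.95 ± 0.18. For all 3 genes the VPA arrays lay above the other 13 arrays.

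Kcnk5, a potassium channel of epithelia, had the largest of the higher differences by this rule. It read 11.63 and 11.40 in VPA arrays and 9.90 and 10.68 in PBS arrays (1.22 ± 0.27, adjusted p = 0.396), and its second probe set gave 1.59. Ykt6 and Copz1 serve vesicle traffic. Ykt6, a SNARE protein, read 10.32 and 10.02 in VPA arrays and 9.52 and 8.87 in PBS arrays (0.97 ± 0.25). Copz1, a subunit of the COPI coat, read 12.25 and 11.97 in VPA arrays and 11.17 and 11.35 in PBS arrays (0.85 ± 0.23). Rrs1, a factor of ribosome assembly, read 9.39 and 9.07 in VPA arrays and 8.44 and 8.09 in PBS arrays (0.97 ± 0.31). Timm10b, a chaperone of mitochondrial import, read 10.25 and 10.31 in VPA arrays and 9.38 and 9.47 in PBS arrays (0.86 ± 0.27). Its 3 further probe sets were also positive.

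The remaining higher genes were Cib1, Nfkbiz, Ier5 and Sptlc1. Cib1, a calcium- and integrin-binding protein, read 11.57 and 11.65 in VPA arrays and 10.26 and 11.07 in PBS arrays (0.94 ± 0.29). Nfkbiz, a nuclear regulator of NF-kappaB targets, read 9.34 and 9.16 in VPA arrays and 8.73 and 7.98 in PBS arrays (0.89 ± 0.28), and the mean of its probe sets gave 0.52. Ier5, an immediate early gene, read 9.58 and 9.25 in VPA arrays and 8.15 and 8.91 in PBS arrays (0.88 ± 0.27). The PBS arrays were the ones apart for Ier5, since the other 11 arrays ran from 9.26 to 10.25. Sptlc1, a subunit of the enzyme that starts sphingolipid synthesis, read 10.36 and 9.87 in VPA arrays and 9.61 and 8.65 in PBS arrays (0.98 ± 0.31). Its probe sets disagreed, and the mean of all 4 gave -0.11.

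The lower genes were led by Car6, which encodes the secreted carbonic anhydrase of saliva and milk. Car6 read 10.31 and 10.32 in VPA arrays and 11.63 and 12.13 in PBS arrays, a difference of -1.57 ± 0.47 (adjusted p = 0.592). Ccdc80, a matrix protein of adipose and connective tissue, read 8.18 and 7.92 in VPA arrays and 9.56 and 8.62 in PBS arrays (-1.04 ± 0.31). Both of its probe sets gave -1.04. Itga9, an integrin subunit, read 7.71 and 8.08 in VPA arrays and 8.26 and 8.86 in PBS arrays (-0.66 ± 0.21), and the mean of its probe sets gave -0.33. The other 11 arrays ran from 7.71 to 8.08 for Itga9, so the PBS arrays were the ones apart. Syne1, a linker of the nuclear envelope to the cytoskeleton, read 7.30 and 7.70 in VPA arrays and 8.30 and 8.48 in PBS arrays (-0.89 ± 0.23). Smarcad1, a chromatin remodeller, read 9.33 and 9.32 in VPA arrays and 9.86 and 9.97 in PBS arrays (-0.59 ± 0.17), and the mean of its probe sets gave -0.27. For Syne1 and Smarcad1 the VPA arrays lay below the other 13 arrays.

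Mmd read 7.79 and 8.24 in VPA arrays and 9.17 and 8.73 in PBS arrays (-0.93 ± 0.25). Bnip2, a BCL2-interacting protein, read 8.78 and 8.94 in VPA arrays and 9.55 and 9.93 in PBS arrays (-0.88 ± 0.28), and another of its 4 probe sets gave 0.03. Sash3, an adaptor of lymphocytes, read 8.13 and 8.49 in VPA arrays and 8.88 and 9.02 in PBS arrays (-0.64 ± 0.19). Of these 21 genes, the VPA arrays lay beyond all 13 others for 9 and the PBS arrays for 3. Over all genes, the VPA arrays did so for 534 (4.31%) and the PBS arrays for 272 (2.19%). Because the 21 genes were chosen for a gap between the same arrays, no test was made of these counts.

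**Figure D2:**
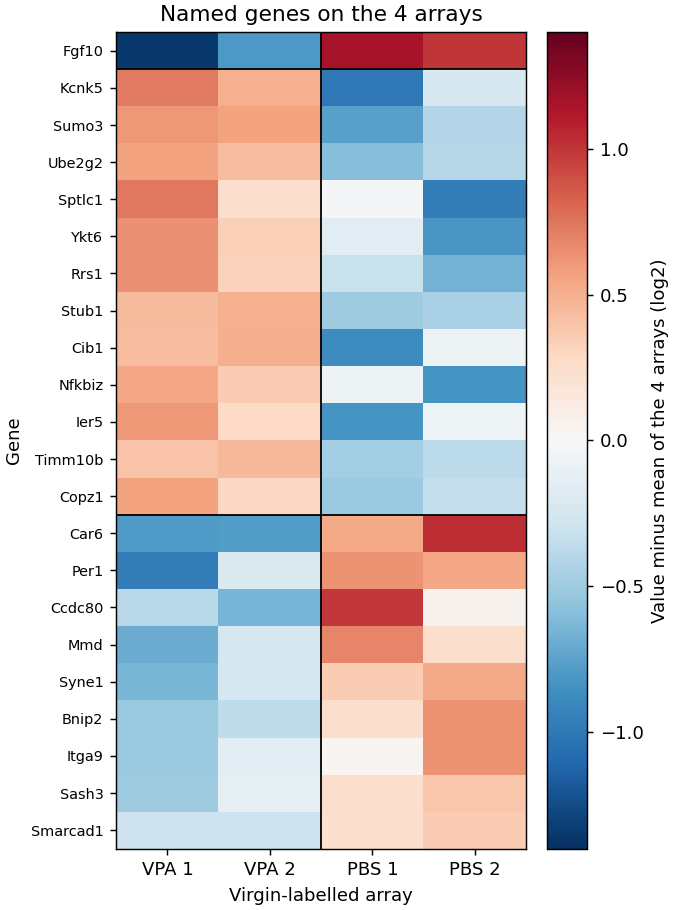
Rows are Fgf10 (top), the 12 bright genes with the largest higher differences and the 9 lower ones; columns are the VPA arrays and then the PBS arrays, and colour gives the value minus the mean of the 4 arrays (log2). The groups do not overlap in any row because the rule required it; the PBS arrays differ from each other most for Sptlc1 (9.61 and 8.65) and Ccdc80 (9.56 and 8.62).

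Genes of the circadian clock were examined after Per1 had come up among the lower genes, so this list was chosen with its values seen. The clock is a loop in which Arntl with Clock or Npas2 drives Per and Cry genes, whose products then repress their own drivers, and Dbp and Tef are outputs of the same loop. Of 19 listed genes, 17 were measured and 0 passed adjustment by limma; 2 were higher and 4 lower at an unadjusted p under 0.05, against 3.65% and 3.22% of all genes. Both VPA arrays lay above both PBS arrays for 4 of the 17 and below them for 6, against 20.8% and 15% of all genes. Arntl read 8.0 and 7.52 in VPA arrays and 6.66 and 6.58 in PBS arrays (1.14 ± 0.20, adjusted p = 0.194). Npas2 read 7.30 and 5.82 in VPA arrays and 2.57 and 5.32 in PBS arrays (2.61 ± 0.76, adjusted p = 0.592). Both drivers were higher in VPA arrays, and both PBS arrays lay below all 13 others for each of them.

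The repressors and outputs of the loop gave differences of both signs. Per1 read 8.33 and 9.09 in VPA arrays and 9.92 and 9.83 in PBS arrays (-1.16 ± 0.30, adjusted p = 0.472). Per2 read 5.10 and 5.64 in VPA arrays and 7.74 and 6.68 in PBS arrays (-1.84 ± 0.43, adjusted p = 0.399), while its second probe set gave -0.38. Per3 read 7.03 and 7.12 in VPA arrays and 8.62 and 8.54 in PBS arrays (-1.50 ± 0.40, adjusted p = 0.494), while its 2 further probe sets gave -0.21 and 0.32. Dbp, an output activator, read 6.79 and 7.99 in VPA arrays and 9.74 and 9.64 in PBS arrays (-2.30 ± 0.77, adjusted p = 0.605), and its second probe set gave -1.29. Cry1 overlapped, with 8.49 and 8.25 in VPA arrays and 7.69 and 8.47 in PBS arrays (0.29). The differences of the repressor Nr1d1 (0.81) and of the output activator Hlf (0.19) were positive too, but the groups overlapped for both. That of Nr1d1 was -0.23 without PBS replicate 2. In the same list, Nr1d2 (-0.73, without overlap) and Cry2 (-0.66, with overlap) had negative differences. The virgin AzaC arrays, which share the PBS arrays of this comparison, differed from PBS by 1.19 for Arntl, 2.45 for Npas2, -0.43 for Per1, -1.46 for Per2, -0.98 for Per3 and -1.83 for Dbp. In pregnant-labelled VPA and PBS arrays, none of which is in it, the VPA difference was -0.18 for Arntl, 0.70 for Npas2, -0.71 for Per1, -0.41 for Per2, -0.19 for Per3 and 0.16 for Dbp. The sign was that of the virgin-labelled arrays for Npas2, Per1, Per2 and Per3. The labels used here give no hour of collection, and its part was not tested.

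**Figure D3:**
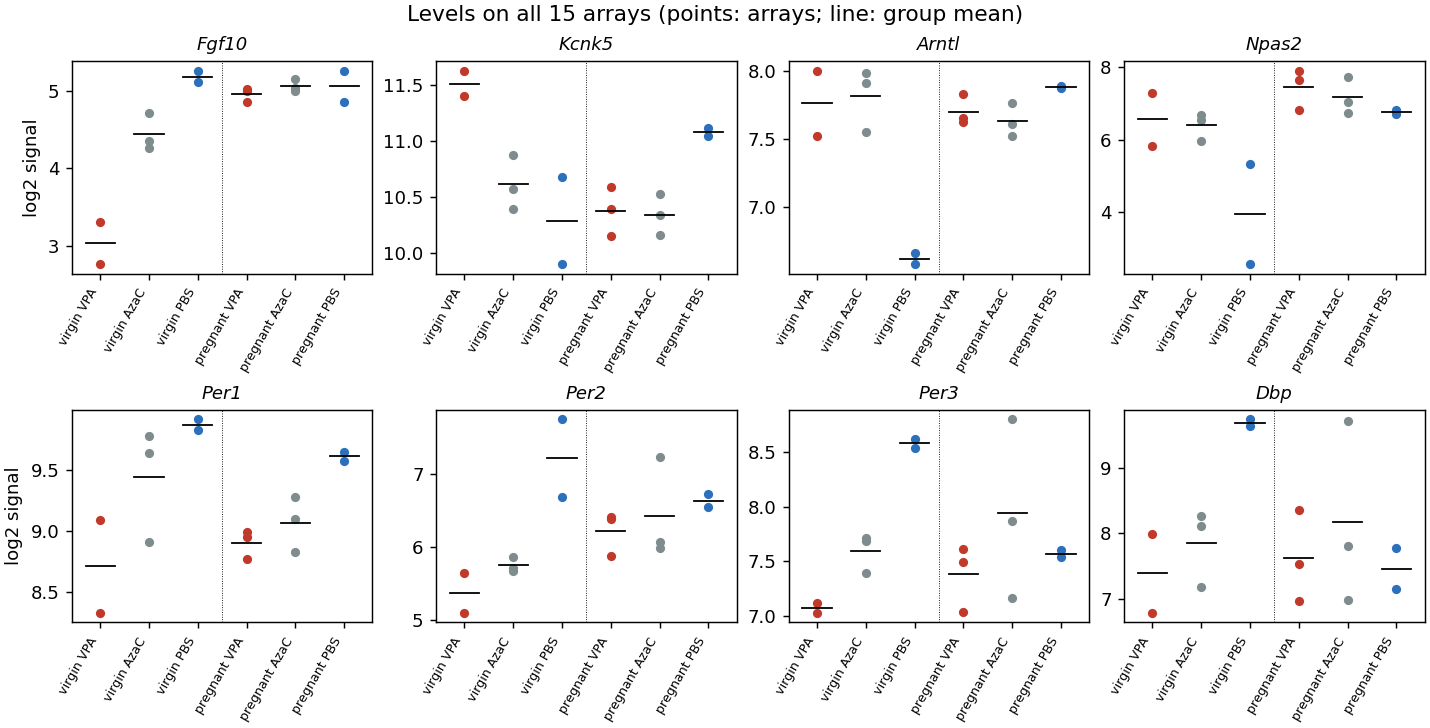
Points are single arrays and black lines are group means of the log2 signal, for VPA, AzaC and PBS arrays under the virgin label (left of the dotted line) and the pregnant label (right). The virgin VPA arrays lie lowest for Fgf10 and highest for Kcnk5, while the virgin PBS arrays lie lowest for Arntl and Npas2 and highest for Per1.

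Promoters of the clock genes are shown because the drivers are known to bind the E-box CACGTG, which reads the same on both strands, and because Arntl is known to be controlled by receptors whose half-site is AGGTCA. The windows run from 250 bases before to 50 after the annotated start, on build GRCm38.p6 of RefSeq, and 15 of the 17 measured clock genes have at least 1 of 20 windows. The E-box was found in 5 of these 20 windows, of 4 genes, against 7.15% of all 32851 windows. The half-site, searched on both strands, was found in 5 of the 20, against 16.3% of all. Capitals mark the searched motif, the E-box in Per1 and Tef and the half-site in Arntl. The Per1 window (chr11:69098699-69098998, plus strand) has its E-box at position -166 from the start, and also a half-site on the other strand, left in lower case, which does not overlap it. The Tef window (chr15:81802423-81802722, plus strand) has its E-box at position -127. The Arntl window (chr7:113207261-113207560, plus strand) has its half-site at position 31. A match is a description of the letters and not of binding.
Per1: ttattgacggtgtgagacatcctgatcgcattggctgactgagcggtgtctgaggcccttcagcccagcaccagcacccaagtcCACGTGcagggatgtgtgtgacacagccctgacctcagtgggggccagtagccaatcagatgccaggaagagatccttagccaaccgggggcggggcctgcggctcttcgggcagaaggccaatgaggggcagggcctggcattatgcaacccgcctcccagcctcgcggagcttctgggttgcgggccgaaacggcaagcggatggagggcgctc
Tef: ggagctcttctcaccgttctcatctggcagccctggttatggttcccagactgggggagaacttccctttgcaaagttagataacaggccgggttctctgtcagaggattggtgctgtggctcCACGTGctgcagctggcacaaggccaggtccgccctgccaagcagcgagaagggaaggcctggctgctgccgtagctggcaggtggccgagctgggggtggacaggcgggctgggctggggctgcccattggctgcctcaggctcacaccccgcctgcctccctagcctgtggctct
Arntl: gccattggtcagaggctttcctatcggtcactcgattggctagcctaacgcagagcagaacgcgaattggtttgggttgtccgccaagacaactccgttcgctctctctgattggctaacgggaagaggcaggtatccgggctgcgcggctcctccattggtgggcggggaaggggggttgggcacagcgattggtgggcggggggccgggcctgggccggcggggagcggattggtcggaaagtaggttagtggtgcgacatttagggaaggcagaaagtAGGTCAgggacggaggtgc
Tef, an output activator like Dbp, read 9.72 and 9.81 in VPA arrays and 10.62 and 10.20 in PBS arrays (-0.64 ± 0.31, adjusted p = 0.731).

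The zinc-dependent histone deacetylases include the enzymes that VPA inhibits. Of 11 listed, 8 were measured, with a median difference of 0.01 and 0 past the threshold by limma. Hdac1 read 10.56 and 10.53 in VPA arrays and 9.86 and 10.62 in PBS arrays, and Hdac3 read 10.42 and 10.37 in VPA arrays and 10.19 and 10.41 in PBS arrays. Hdac2 read 7.95 and 7.59 in VPA arrays and 7.42 and 7.07 in PBS arrays (0.53 ± 0.34, adjusted p = 0.778). Hdac9 was the 1 member lower at an unadjusted p under 0.05 by limma, and 0 were higher, against 3.22% and 3.65% of all genes. It read 1.62 and 0 in VPA arrays and 3.04 and 3.12 in PBS arrays (-2.27 ± 1.01, adjusted p = 0.718). These values are dim, and the difference was 0 with a floor of 5. Groups overlapped for Hdac1 and Hdac3 and not for Hdac2 or Hdac9.

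Of 12 genes known to rise with deacetylase inhibitors in cultured cells, 10 were measured, and their median difference was -0.24. The median was -0.02 with the Gapdh difference as a covariate and -0.44 without VPA replicate 2. None passed: 0 were higher and 2 lower at an unadjusted p under 0.05, against 3.65% and 3.22% of all genes. Cdkn1a, which encodes the cell cycle inhibitor p21, read 7.56 and 8.01 in VPA arrays and 7.78 and 7.76 in PBS arrays. The second, dimmer probe set of Cdkn1a read 5.40 and 5.46 in VPA arrays and 5.07 and 2.83 in PBS arrays, and the mean of both gave 0.75. Cdkn1c, which encodes another inhibitor of cyclin-dependent kinases, read 6.81 and 6.94 in VPA arrays and 7.42 and 7.97 in PBS arrays (-0.82 ± 0.26, adjusted p = 0.592). Txnip, a thioredoxin-binding protein, read 10.57 and 10.80 in VPA arrays and 13.12 and 11.39 in PBS arrays (-1.57 ± 0.68, adjusted p = 0.706). In pregnant-labelled arrays the median of the same list was 1.08, and 2 of the 10 were higher past the threshold, against 3.64% of all genes. A median of that size was not particular to this list. The pregnant medians of the 32 lists ran from -1.55 for cholesterol synthesis to 1.21 for luminal genes, with 1.12 for skeletal muscle. For 0 of the 10 did the effect differ between the stage labels at an adjusted p under 0.05. Over all genes those shares were 0.121% higher and 0.194% lower, so a count of 0 does not set this list apart.

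Fibroblast markers had the lowest median difference of the 32 lists, followed by salivary gland genes at -0.51, which are described below. The fibroblast median was -0.58 over 26 genes, against 0.05 over all genes, and 25 of the 26 were negative. Both VPA arrays lay below both PBS arrays for 17 of them (65.4%), against 15% of all genes. None passed adjustment by limma, and 3 were lower at an unadjusted p under 0.05, against 3.22% of all genes. Their summed level was 15823 and 10383 in VPA arrays and 24556 and 18430 in PBS arrays, with no overlap. Col3a1, a fibrillar collagen, read 11.76 and 10.72 in VPA arrays and 12.44 and 12.19 in PBS arrays (-1.08 ± 0.41, adjusted p = 0.648). Serpinf1, a secreted protein of stromal cells, read 8.63 and 8.18 in VPA arrays and 9.13 and 9.03 in PBS arrays (-0.68 ± 0.25, adjusted p = 0.648). Pdgfra, a receptor that marks fibroblasts, read 6.90 and 6.41 in VPA arrays and 7.73 and 6.73 in PBS arrays. Probe sets disagreed in size or sign for these genes, since the mean of all gave -0.44 for Col3a1, -0.17 for Serpinf1 and -0.24 for Pdgfra. None of the 3 defining markers was at 0. The median was -0.33 without VPA replicate 2 and -0.70 with the 18S signal as a covariate, and the part of these cells in the difference of Fgf10 was not tested.

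Neighbouring lists were less low. Extracellular matrix genes had a median of -0.23, with 30 of 37 negative, which was -0.05 without PBS replicate 1 and -0.43 with the 18S covariate. Adipocyte genes had a median of -0.38, with 14 of 19 negative. Fabp4, a fatty acid binding protein of adipocytes, read 12.66 and 12.75 in VPA arrays and 13.31 and 12.86 in PBS arrays (-0.38 ± 0.20, adjusted p = 0.735), and the mean of its 4 probe sets gave -0.84. The adipocyte median depended on PBS replicate 1: without it the value was -0.10, and without PBS replicate 2 it was -0.69. Basal and myoepithelial genes had a median of -0.22, which was 0.05 without VPA replicate 2, and luminal genes one of 0.08, which was -0.04 without PBS replicate 2. Among luminal genes, Cldn7, a tight junction protein, read 11.83 and 11.64 in VPA arrays and 11.06 and 11.17 in PBS arrays (0.62 ± 0.20, adjusted p = 0.592). Endothelial (0.01), macrophage (-0.13) and lymphoid (0.00) medians were closer to that of all genes. The macrophage median was 0.16 without PBS replicate 1, and the endothelial one ran from -0.21 without VPA replicate 1 to 0.25 without VPA replicate 2.

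Transcripts of skeletal muscle and salivary gland were present on these arrays. All 31 muscle genes had a positive difference, with a median of 0.55, yet their summed level overlapped, with 71877 and 110836 in VPA arrays and 90681 and 48534 in PBS arrays. PBS replicate 2 was the low one. The median was 1.03 without PBS replicate 1, 0.15 without PBS replicate 2 and 0.22 without VPA replicate 2, and the 3 defining markers, Acta1, Ckm and Myh4, lay at or above the 97.2th percentile of every array. Smr3a, a submandibular gland protein, read 5.05 and 10.55 in VPA arrays and 13.08 and 8.61 in PBS arrays, against at most 4.61 in the other 11 arrays. Amy1, the salivary amylase, read 6.31 and 10.04 in VPA arrays and 13.01 and 7.54 in PBS arrays, against at most 7.48 in the other 11. The highest reading of both genes was in PBS replicate 1. The 17 salivary genes summed to 9383 and 18598 in VPA arrays and 42803 and 14087 in PBS arrays. Their median difference was -0.51, with 12 of 17 negative. It was -0.90 without PBS replicate 2 and -0.05 with only genes at or above the median signal. Car6, the lower gene named above, belongs to this list, but its highest reading was in PBS replicate 2, and the part of salivary tissue in it was not tested.

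The medians of metabolic and growth lists moved when single arrays were left out. Oxidative phosphorylation genes had a median of 0.22 with 56 of 62 positive, and the value was -0.05 without PBS replicate 1 and 0.55 without PBS replicate 2. Sdhc, a subunit of respiratory complex II, read 11.28 and 11.22 in VPA arrays and 10.61 and 10.61 in PBS arrays (0.64 ± 0.20, adjusted p = 0.592). Cholesterol synthesis genes had a median of 0.30 with 15 of 19 positive, which was 0.13 without PBS replicate 1 and 0.12 without VPA replicate 1. Fdps, which encodes farnesyl diphosphate synthase, read 11.83 and 11.28 in VPA arrays and 10.54 and 10.70 in PBS arrays (0.94 ± 0.55, adjusted p = 0.763). Its second, dim probe set gave -1.21 and the mean of both -0.14. Cell cycle genes had a median of 0.12, which was -0.11 without PBS replicate 1. Cytosolic ribosomal protein genes had a median of 0.15, which was -0.05 without PBS replicate 1. None of the genes of these 4 lists passed adjustment by limma; 4, 1, 0 and 2 of them, in that order of lists, were higher at an unadjusted p under 0.05, against 3.65% of all genes.

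Interferon-stimulated genes had a median of -0.17 over 32 genes, with 4 lower and 0 higher at an unadjusted p under 0.05, against 3.22% lower and 3.65% higher over all genes. The median was 0.03 without VPA replicate 2. Rsad2, the antiviral protein viperin, read 8.86 and 8.92 in VPA arrays and 9.96 and 9.97 in PBS arrays (-1.08 ± 0.40, adjusted p = 0.648). Ifit1, an antiviral RNA-binding protein, read 7.83 and 7.96 in VPA arrays and 8.88 and 8.30 in PBS arrays. Wnt pathway genes had a median of -0.15 over 27. Sfrp1, a secreted inhibitor of Wnt ligands, read 7.09 and 7.35 in VPA arrays and 7.47 and 8.88 in PBS arrays (-0.96 ± 0.35, adjusted p = 0.648). Without PBS replicate 1 it gave -1.66 with an adjusted p of 0.017, and the mean of its probe sets gave -0.23. Hormone-sensing genes had a median of -0.25 over 11. Tnfsf11, the progesterone target RANKL, read 3.72 and 4.65 in VPA arrays and 5.26 and 5.97 in PBS arrays (-1.43 ± 0.49, adjusted p = 0.607), and the mean of its probe sets gave -0.81. Cited1, a transcriptional coregulator of the same list, read 7.03 and 6.95 in VPA arrays and 5.99 and 6.17 in PBS arrays (0.91 ± 0.47, adjusted p = 0.735), and its VPA arrays lay above the other 13. Esr1, the estrogen receptor gene, overlapped between the groups. Groups did not overlap for Rsad2, Ifit1, Sfrp1, Tnfsf11 and Cited1. The Wnt and hormone-sensing medians were 0.09 and 0.10 with only genes at or above the median signal, where the median of all genes was 0.11.

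The other lists also held no gene past the threshold. Unfolded protein response genes had a median of 0.17, with 20 of 28 positive. Calr, a chaperone of the endoplasmic reticulum, read 13.35 and 13.24 in VPA arrays and 12.97 and 12.72 in PBS arrays (0.45 ± 0.25, adjusted p = 0.757). Immediate early and dissociation genes had a median of 0.01, with 7 of 31 above and 7 below without overlap, shares of 22.6% each against 20.8% and 15% of all genes. That median ran from -0.18 without PBS replicate 2 to 0.14 without PBS replicate 1. Genes of fatty acid oxidation had a median of 0.05 and those of fatty acid and triglyceride synthesis one of 0.04. Milk protein genes had a median of 0.03 over 18. Neuronal genes, which include targets of repressors that recruit deacetylases, had a median of -0.15 over 19, which was 0.18 with only genes at or above the median signal. Gria2, a glutamate receptor subunit, read 6.99 and 6.42 in VPA arrays and 6.60 and 4.18 in PBS arrays (1.31 ± 0.60, adjusted p = 0.726). It passed without PBS replicate 1, at 2.52 with an adjusted p of 0.0335, and the mean of both probe sets gave 0.13. Imprinted genes had a median of -0.12 over 28, which was 0.06 without PBS replicate 1. Nnat, an imprinted membrane protein, read 6.54 and 7.16 in VPA arrays and 7.96 and 7.97 in PBS arrays (-1.11 ± 0.44, adjusted p = 0.675).

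**Figure D4:**
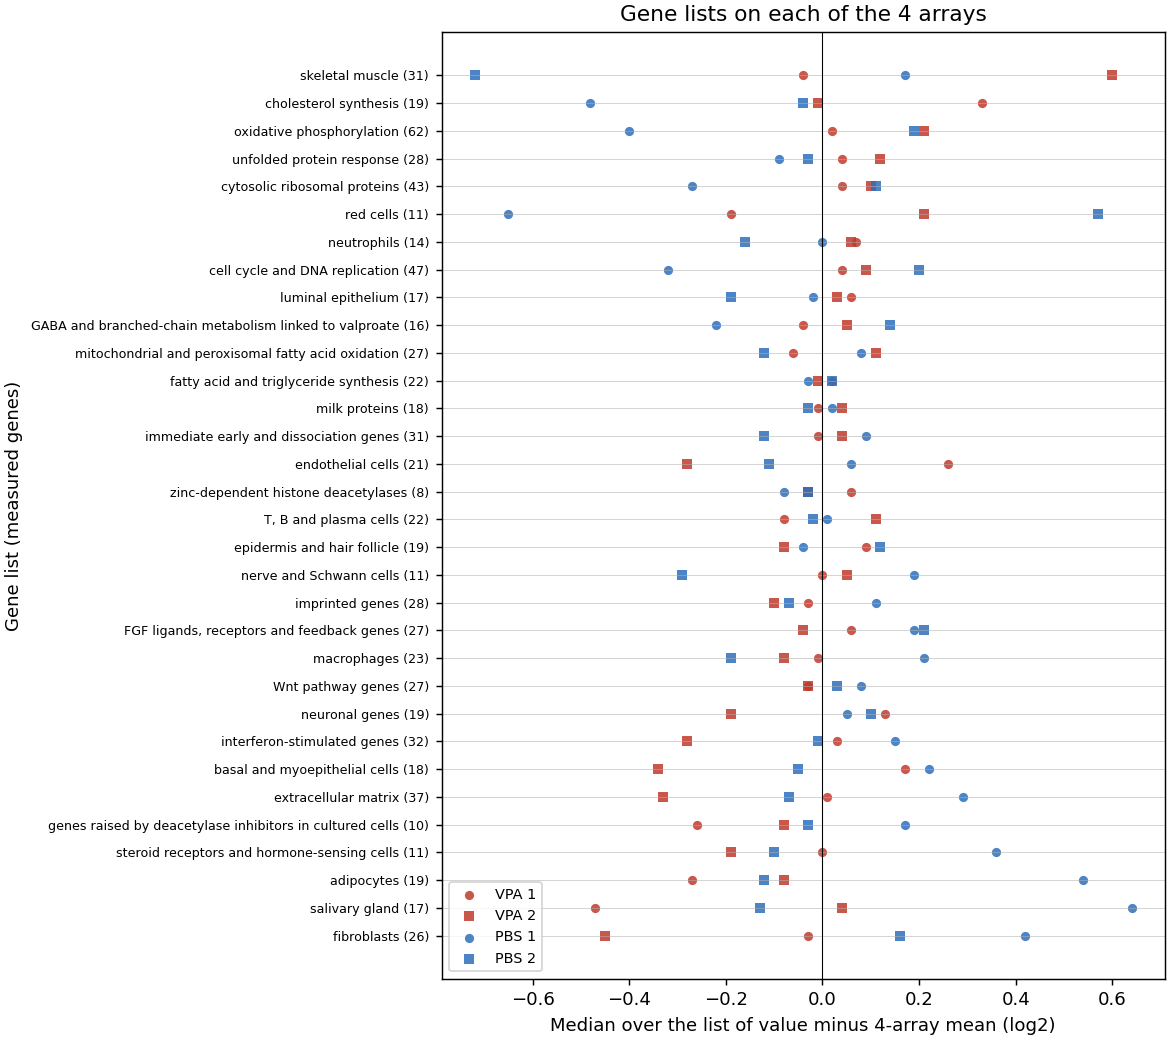
For each of the 32 gene lists (measured genes in parentheses), points give the median over the list of value minus 4-array mean (log2) in each VPA array (red) and each PBS array (blue), circles for replicate 1 and squares for replicate 2. Both VPA points lie left of both PBS points for fibroblasts, where the median difference is -0.58. The same order holds for the fibroblast growth factor, Wnt and deacetylase inhibitor lists, with smaller median differences. For oxidative phosphorylation and cholesterol synthesis PBS replicate 1 lies furthest left, and for skeletal muscle PBS replicate 2.

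VPA was also compared with PBS under the pregnant label, where no dose or time after injection is given either. Those arrays are not among the 4 compared above but share the fit with them. There 451 genes (3.64%) were higher and 290 (2.34%) lower at an adjusted p under 0.05. Of these 741 genes, 235 had the same sign in virgin-labelled arrays and 501 the opposite one. Across all genes 5673 had the same sign in both (45.8%), and the differences correlated at -0.0695 across genes, which are not independent replicates. Among the 21 bright genes named by size, 5 had the same sign. The difference between the stage labels itself passed an adjusted p of 0.05 for 15 genes that were higher (0.121%) and 24 that were lower (0.194%) in the pregnant than in the virgin VPA effect. Of these 39 genes, 37 were also past the threshold under the pregnant label alone, and 36 had opposite signs under the labels. The exceptions to the first count were Fgf10 and Il9r. Because the 39 genes were chosen for a difference between the labels, the choice itself favours opposite signs, and no test was made of that count. The 39 became 0 without virgin VPA replicate 1 and without pregnant VPA replicate 1 or 2, between 2 and 10 without any other of the pregnant arrays compared or virgin VPA replicate 2, and 80 without virgin PBS replicate 2.

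Fgf10 read 5.00, 4.86 and 5.02 in pregnant VPA arrays and 4.86 and 5.26 in pregnant PBS arrays, a difference of -0.10. Its effect differed between the labels by 2.05 ± 0.30 (adjusted p = 0.0279). Angptl4, a secreted inhibitor of lipoprotein lipase, read 7.82 and 7.52 in virgin VPA arrays and 10.16 and 8.25 in virgin PBS arrays. Its difference was -1.53 in virgin-labelled and 5.31 in pregnant-labelled arrays, and the labels differed by 6.84 (adjusted p = 0.0483). Ucp3, an uncoupling protein of mitochondria, read 8.06 and 8.25 in virgin VPA arrays and 9.65 and 8.86 in virgin PBS arrays, with differences of -1.10 in virgin-labelled and 2.56 in pregnant-labelled arrays (adjusted p of the difference between labels = 0.0325). Bhlha15, a transcription factor of secretory cells, read 11.18 and 10.99 in virgin VPA arrays and 10.38 and 10.78 in virgin PBS arrays, with differences of 0.51 in virgin-labelled and -2.12 in pregnant-labelled arrays (adjusted p of the difference between labels = 0.0325). For Angptl4, Ucp3 and Bhlha15 the virgin difference alone did not pass. Over all genes, the virgin VPA arrays correlated with the pregnant PBS arrays at 0.966 to 0.974 and with the virgin PBS arrays at 0.950 to 0.968.

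**Figure D5:**
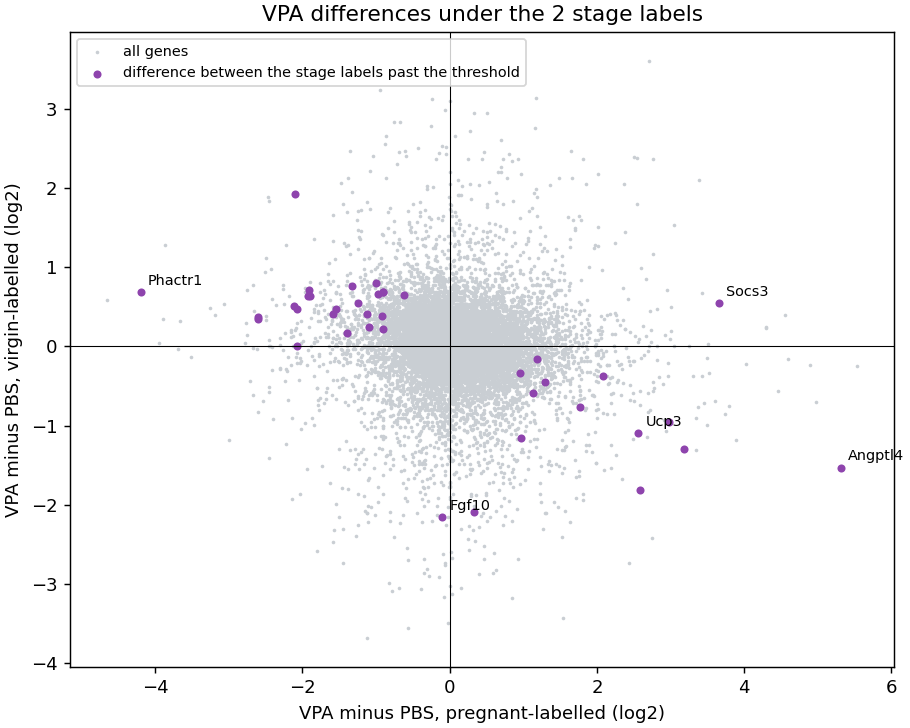
Each point is a gene, with the difference VPA minus PBS in virgin-labelled arrays on the y axis and in pregnant-labelled arrays on the x axis (log2). Purple points are the 39 genes whose VPA effect differed between the labels; Fgf10 lies at -2.16 in virgin-labelled and -0.10 in pregnant-labelled arrays.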

How the data were processed

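The authors deposited 1 table of log2 signals of Affymetrix mouse probe sets on 15 arrays, per the labels and the platform annotation. The base of the logarithm was inferred from the range of 0 to 14.48, and the summary and normalization methods are not given in the sources used here. Values were used as deposited. Of 22690 probe sets, 20380 carried a single symbol, 691 several and 1619 none or a control, 64 of which were controls.

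Group means (6 groups) were fitted to all 15 arrays with limma 3.58.1 (lmFit, eBayes; R 4.3.3), with 9 residual and 2.31 prior degrees of freedom and p-values adjusted by Benjamini and Hochberg over 12393 genes. The stage difference is the pregnant minus the virgin VPA effect. List sums are of 2 to the power of the value. Genes were named if they passed an adjusted p of 0.05, or, at or above the median signal with an unadjusted p under 0.01 and non-overlapping arrays, if among the 12 largest in a direction; the 3 smallest p-values of each of 32 lists and 23 fixed genes, of which 22 are measured, were added, and not all are described. The members and lists were chosen with earlier results of these data known. The fit was tested on simulated data. Figures were drawn with matplotlib 3.10.9.

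Alternatives were quantile normalization, a filter at the median signal, a floor of 5, the mean of probe sets, other variance settings and fewer arrays. Others were the replicate number as a block and, as covariates, the Gapdh difference and, chosen after seeing the data, the 18S signal. Each VPA or PBS array was also left out in turn, but no AzaC array was. Fgf10 was recomputed only without the virgin-labelled ones.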

Additional observations from a re-analysis of the deposited data

Results flagged for a closer look

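The VPA effect differed between the pregnant and the virgin label for 39 genes at an adjusted p under 0.05 by limma, and 6 of the named genes are among them. The pregnant effect minus the virgin effect was 2.05 for Fgf10, where the virgin-labelled arrays alone showed a difference. It was 2.42 for Il9r (adjusted p = 0.0491), whose VPA difference was 0.33 in pregnant-labelled and -2.09 in virgin-labelled arrays. For Socs3, a feedback inhibitor of cytokine signalling, it was 3.11 (adjusted p = 0.0279), with differences of 3.66 in pregnant-labelled and 0.55 in virgin-labelled arrays. It was 6.84 for Angptl4, 3.66 for Ucp3 and -2.63 for Bhlha15, each with differences of opposite sign under the labels. For Angptl4 the pregnant VPA arrays read 13.43, 13.13 and 13.20 and the pregnant PBS arrays 8.01 and 7.88. Pregnant AzaC arrays read 13.15, 13.23 and 12.18. For Socs3, Ucp3 and Bhlha15 too, the pregnant AzaC arrays lay nearer the pregnant VPA than the pregnant PBS arrays. The cause was not tested.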

How the results depend on the processing

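The count of genes past the threshold, 1 as reported, was 0 with only genes at or above the median signal, with eBayes trend and robust settings, with only the 4 arrays compared, with only the 7 virgin-labelled arrays, and with the 18S covariate, and 5 with a floor of 5 (Actl7a, Cdh10, Cxcl15, Slc25a38 and Trim13, without Fgf10). It ranged from 0 to 39 when arrays were left out, the highest without PBS replicate 1 and 12 without VPA replicate 2. Fgf10 gave -2.16 with trend and robust settings (adjusted p = 0.18), -2.15 with the 4 arrays (0.84), -2.16 with the 7 arrays (0.577), -2.17 with the 18S covariate (0.102) and -0.19 with the floor (0.697). Leaving out arrays gave -2.42 to -1.88. Fgf10 was not tested under the filter at the median signal, which removes it. It passed under quantile normalization (-1.98) and the Gapdh covariate (-2.14). It also passed under the mean of probe sets, which could not change its values because it has 1 probe set. The 39 genes that differed between the labels became 16 under quantile normalization, 240 under the filter, 147 with the floor, 242 with trend and robust settings, 84 with only the 9 PBS and VPA arrays, 83 with the Gapdh covariate, 0 with the 18S covariate (1973 at an unadjusted p under 0.05) and 0 to 80 without single arrays. Deviations from the group means, taken between same-numbered arrays, correlated at -0.174 to 0.333, over 0.1 in 6 of 33 pairs. In a group of 2 arrays the deviations are equal and opposite, so these values cannot decide whether the numbers pair the arrays. With the replicate block, 0 genes passed (919 at an unadjusted p under 0.05), Fgf10 gave -2.15 (adjusted p = 0.0536), and 0 genes differed between the labels. The cause of these changes was not tested, except that the filter tests fewer genes and smaller sets of arrays leave fewer degrees of freedom. Of 2314 values of the other 170 genes recomputed, 2228 kept sign and side of the threshold, 83 changed sign or became 0 without passing, and 3, Armh4, Gria2 and Sfrp1 without PBS replicate 1, passed. Of 448 list medians, 375 moved by less than the spread between replicates. No called value reversed.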
